A study of Mus musculus with 3 samples.

Results

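The microRNA genes of the mouse autosomes were examined in the dentate gyrus, a part of the hippocampus whose main cells are granule neurons. The members are all rows of the deposited RPKM table whose gene name starts with Mir and a digit or with Mirlet, on chromosomes 1 to 19. They number 1045 of 24458 rows in the table and of 23120 rows on these chromosomes, and they carry 986 different symbols. RPKM is the number of mapped reads per kilobase of transcript, scaled to the total of mapped reads in the library. The study looked at open chromatin and RNA in this tissue after neurons had been activated, and the samples used here form 1 group, labelled E24, of 3 libraries (replicates 1, 2 and 3). Each library came from the microdissected dentate gyrus of 1 adult C57BL/6 mouse, 8 weeks old, with total RNA as the labelled molecule. The deposited table is marked WT and ECT, and since the labels spell out neither these marks nor E24, no genotype or treatment is stated for these mice. With 1 group, no conditions are compared. The labels do not say whether RNA was selected by size or by its tail. A value at a row as short as a hairpin is therefore not read as the level of a mature microRNA.

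A microRNA is cut from a hairpin in a longer transcript, first by Drosha with Dgcr8 in the nucleus and then by Dicer in the cytoplasm. An Argonaute protein carries the mature strand, whose seed near its 5′ end pairs with messenger RNAs that are then repressed. Many hairpins lie in introns of other genes, and many others lie in clusters made from 1 long transcript. In neurons, microRNAs act in differentiation, in the shaping of dendrites and in local control of translation at synapses.

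Mature sequences of the microRNAs that the results below turn on are shown first, since several rows make the same sequence or share a seed and yet differ in value. They are RefSeq's (GRCm38.p6), 5′ to 3′, with the seed, bases 2 to 8, in capitals. A RefSeq entry matched 815 of the 1045 rows by symbol.
miR-9-5p, made by Mir9-1, Mir9-2 and Mir9-3: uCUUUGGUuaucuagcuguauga
miR-204-5p, from Mir204: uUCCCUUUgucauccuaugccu
miR-211-5p, from Mir211: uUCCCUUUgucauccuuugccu
miR-7a-5p, from Mir7-1: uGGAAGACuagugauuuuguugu
miR-7b-5p, from Mir7b: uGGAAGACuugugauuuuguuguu
miR-103-3p, from Mir103-2: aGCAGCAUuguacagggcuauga
miR-128-3p, from Mir128-1: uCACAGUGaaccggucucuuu
miR-335-5p, from Mir335: uCAAGAGCaauaacgaaaaaugu
miR-7055-5p, from Mir7055: uCAGUGGGuuaucugaguugg
let-7a-5p, from Mirlet7a-1: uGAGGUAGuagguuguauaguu
let-7g-5p, from Mirlet7g: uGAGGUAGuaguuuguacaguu
miR-136-5p, from Mir136 in the chromosome 12 cluster: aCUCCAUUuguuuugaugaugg
miR-412-5p, from Mir412 in the chromosome 12 cluster: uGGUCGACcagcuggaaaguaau
miR-344-5p, from Mir344 in a chromosome 7 cluster: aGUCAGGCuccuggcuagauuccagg
miR-344c-5p, from Mir344c in the same cluster: aGUCAGGCugcuggcuagaguac
miR-344d-1-5p, from Mir344d-1 in the same cluster: aGUCAGGCugcuggcuauacacca

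All values of the table summed to between 350942 and 384523 RPKM per library, and the microRNA rows held 5.33%, 5.64% and 3.84% of that sum in replicates 1, 2 and 3. Read depth is unknown, since the table gives no counts, and an exact 0 means only that a row is listed at 0. The value of a locus was often found on another row near it in another library. Among microRNA rows at 20 RPKM or more in 1 library, 7.03% to 34.7% had a value within 0.1 (natural log) on the same row of another library, over the ordered pairs of libraries. A further 45.1% to 59.3% had no such value on their own row but had one 1 to 10 rows away. The reference level, a value as close 31 to 40 rows away, was 20.8% to 30.97%. Of microRNA rows at 1 RPKM or more in 1 library, 59.3% ± 5.56 (SD over the ordered pairs of libraries, which share libraries) were so on the same row of another. For other autosomal rows the share was 77.5% ± 2.45. These shares start from different bases, since 31.4% of microRNA rows and 51.6% of other rows were at 1 RPKM or more in a library on average. They therefore do not show that microRNA rows recur less well than other rows. Since close values often lay on nearby rows, a value below is that of the row named X. Which locus the reads came from was not tested. Of 8 marker rows of granule neurons, 3 were at 1 RPKM or more on their own row in all 3 libraries. Of all autosomal rows 33.2% were so. In at least 1 library 7 of the 8 were so, and none was listed at 0 in all 3. Marker rows so in all 3 libraries were 4 of 5 for pyramidal neurons, 2 of 4 for interneurons and 3 of 4 for microglia. They were 1 of 4 for astrocytes, 1 of 4 for oligodendrocytes and 1 of 3 for endothelial cells. Which cells the RNA came from was not tested.

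MicroRNA rows were at 1 RPKM or more less often than other genes. In replicates 1, 2 and 3, 368, 297 and 320 of the 1045 rows reached 1 RPKM, which is 31.4% ± 3.47 (SD, n = 3). Among the 22075 other autosomal rows 51.6% ± 0.337 did so. The difference was -20.2 ± 3.14 percentage points and had the same sign in all 3 libraries (exact sign-flip permutation test over libraries, two-sided, p = 0.25, the smallest that 3 libraries can give here and in every comparison of shares below). Rows listed at 0 made up 57.3% ± 4.23 of the microRNA rows and 27.5% ± 1.14 of the others. At 100 RPKM or more were 2.42% ± 0.585 of microRNA rows and 2.52% ± 0.124 of other rows, and these shares overlapped between libraries. Across libraries, 131 microRNA rows reached 1 RPKM in all 3, 405 in 1 or 2, and 509 in none, while 399 were listed at 0 in all 3. Of all autosomal rows 33.2% reached it in all 3 libraries and 17.4% were at 0 throughout, against 12.5% and 38.2% of the microRNA rows.

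**Figure D1:**
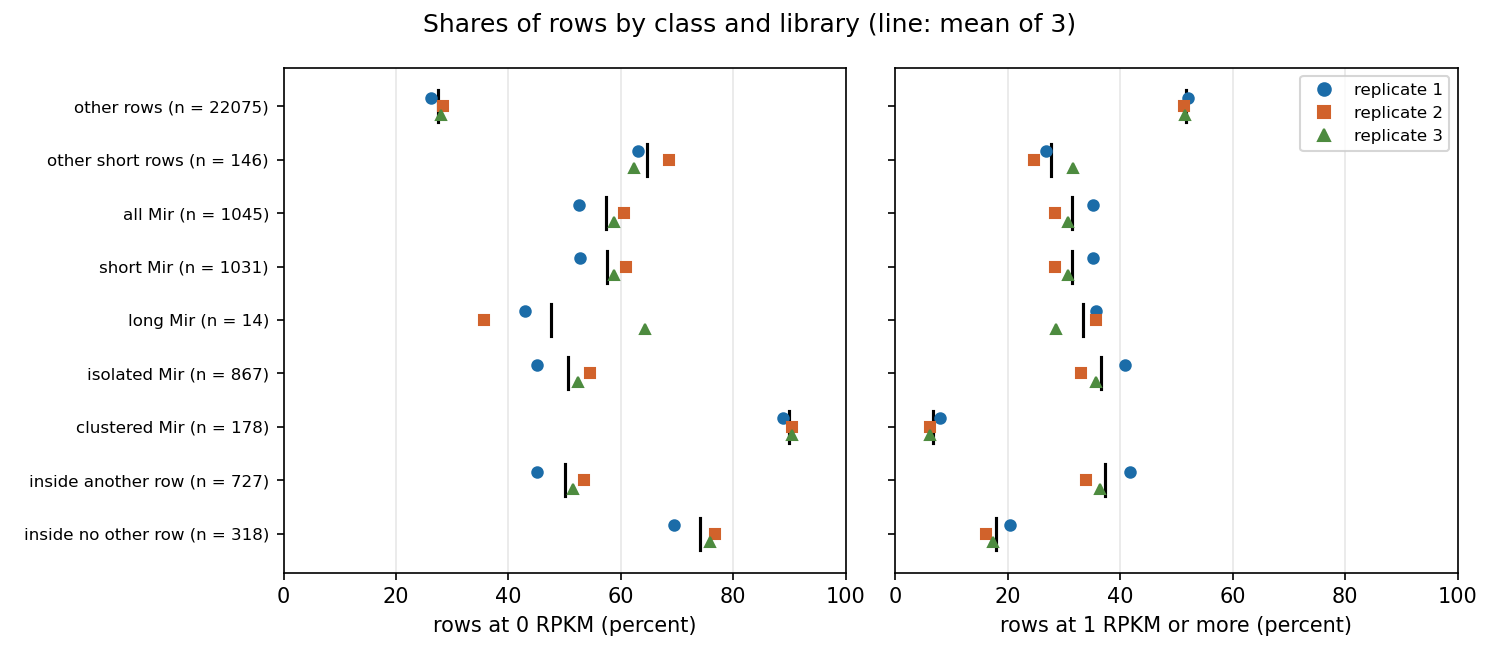
Percent of rows listed at 0 RPKM (left) and at 1 RPKM or more (right) for classes of autosomal rows. Points are libraries and the black line is their mean. Clustered microRNA rows sit near 90% at 0 in each library, and the 14 long rows spread widely.

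Short and long loci differed by less than the spread between libraries at 0 and at 1 RPKM. Long loci, 14 in number, were too few to be compared at 100 RPKM. Short loci, under 250 bp, made up 1031 of the rows (20 to 147 bp, median 81), and the RefSeq hairpin was as long as the locus for 792 of the 805 rows with a unique entry. Only 14 rows were longer, from 2339 to 412821 bp. They include the host genes Mir17hg, Mir22hg, Mirlet7bhg and Mir143hg, whose transcripts carry a microRNA, and rows such as Mir6369 and Mir1195 whose locus in the table runs over far more than a hairpin. At 1 RPKM or more were 31.4% ± 3.50 of short and 33.3% ± 4.12 of long rows, a difference of -1.94 ± 4.90 points (exact sign-flip p = 0.75), which was 0.786 without replicate 2. Listed at 0 were 57.5% ± 4.28 of short and 47.6% ± 14.9 of long rows, a difference of 9.83 ± 15.4 points (exact p = 0.5). Without 1 library the difference at 0 ran from 2.15 to 17.5 points, and in replicate 3 alone it was -5.51. No long row reached 100 RPKM, against 2.46% ± 0.593 of short rows (exact p = 0.25). With only 14 long rows, none at this level could also be met at the rate of the short rows. The comparison therefore cannot tell the classes apart. The 3 rows just under the limit are Mir8106 and Mir8120, both 139 bp, and Mir3535, 147 bp. The 3 just over it are Mir17hg (2339 bp), Mirlet7bhg (3752 bp) and Mir22hg (5152 bp), so no locus lies near 250 bp.

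The long host gene rows differed between libraries. The Mir22hg row was at 17.8, 16.1 and 0 RPKM in replicates 1, 2 and 3. Mir17hg, the host of the Mir17 cluster, was at 6.18, 0.438 and 0 RPKM. Mirlet7bhg was at 0, 4.04 and 2.62 RPKM, and Mir143hg stayed under 1 RPKM throughout. None of these 4 rows was at 1 RPKM or more in every library. The long rows that were are Mir8115 (7.29, 11.3 and 10.2 RPKM) and Mir1195 (6.50, 27.2 and 6.57 RPKM). Mir6369, the longest, was at 46.2, 0.0510 and 44.1 RPKM, so replicate 2 stood apart.

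Short microRNA rows were set beside the 146 other short autosomal rows, 118 of them small nucleolar RNA genes. At 1 RPKM or more the shares were 31.4% ± 3.50 and 27.6% ± 3.51, and the difference of 3.77 ± 4.68 points was within the spread between libraries (exact sign-flip p = 0.5). With a limit of 1000 bp, which brings longer genes into the other class, it was 18.95 points, with 150 bp it was 2.13, and without 1 library it ran from 1.40 to 6.08. Listed at 0 were 52.7%, 60.9% and 58.8% of the short microRNA rows in replicates 1, 2 and 3, and 63.0%, 68.5% and 62.3% of the other short rows. At 100 RPKM or more were 3.10%, 2.33% and 1.94% of the short microRNA rows and 6.16%, 5.48% and 8.90% of the other short rows. The other short rows had the higher share in each library both at 0 and at 100 RPKM or more, and these differences were not tested. On such short loci small values need not stand for a whole read. If a library held 1e+08 mapped reads, 10.5%, 11.2% and 12% of the short microRNA values above 0 would equal less than 1 read, against 12.96%, 6.52% and 9.09% among the other short rows and 0.295%, 0.247% and 0.270% among all other autosomal rows. The lowest, 3.73e-230 RPKM, was on the row of Mir1306 in replicate 3.

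Clustered rows were at 0 more often than isolated ones, and the gap came from the 4 largest runs of clustered rows. A row counts as clustered where 5 or more other microRNA rows lie within 10 table rows, which holds for 178 rows, against 867 isolated ones. Clustered rows were listed at 0 in 88.8%, 90.4% and 90.4% of cases in replicates 1, 2 and 3. For isolated rows the shares at 0 were 45.1%, 54.4% and 52.4%, so the classes did not overlap, and the difference was 39.3 ± 3.96 percentage points (exact sign-flip p = 0.25). At 1 RPKM or more were 6.74% ± 0.973 of clustered and 36.5% ± 3.99 of isolated rows (difference -29.7 ± 3.09, exact p = 0.25). At 100 RPKM or more were 0.375% ± 0.324 of clustered and 2.85% ± 0.768 of isolated rows (difference -2.47 ± 1.08, exact p = 0.25). Among short loci alone the gap was 29.9 ± 3.50 points, since 36.5% ± 4.10 of 854 isolated and 6.59% ± 0.652 of 177 clustered rows reached 1 RPKM. Among long loci only Mir17hg is clustered, so the comparison rests on 1 row.

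The clustered rows form 10 runs in the table, and runs of different size were not alike. The 4 runs of 9 or more rows hold 154 rows, of which 4, 4 and 4 reached 1 RPKM in replicates 1, 2 and 3 and 95.7% ± 0.375 were listed at 0. The 6 smaller runs hold 24 rows, of which 10, 7 and 7 reached 1 RPKM, or 41.7%, 29.2% and 29.2%. They include Mir706 and a row of Mir684-1 on chromosome 11, each a run of 1 row, and a run of 2 rows, Mir6372 and Mir216b. The count of rows within 10 did not stop at chromosome ends. The smaller runs are therefore not all clusters of microRNA genes. Against isolated rows the smaller runs differed by -3.15 ± 3.70 points at 1 RPKM or more and by 2.14 ± 1.61 points at 0. This split by size was made after the data had been seen and is given with no test.

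The other rows near them in the table differed far less. Table order does not always follow position on the chromosome, so rows near in the table need not be near in the genome. Within 10 rows of an isolated microRNA row 56.6% ± 0.198 of other rows were at 1 RPKM or more, and within 10 rows of a clustered one 51.8% ± 0.870, a difference of 4.82 ± 1.01 points (exact sign-flip p = 0.25). Clustered microRNA rows thus lay 45.0 ± 1.60 points below the 199 other rows near them, and isolated rows 20.1 ± 3.82 points below the 10889 near them. RefSeq hairpins of clustered rows held a median of 47.8% G and C and those of isolated rows 53.1%. Rows at 1 RPKM or more in all 3 libraries and with a hairpin sequence (n = 111) had a median of 54.4%, and those at 1 RPKM in none (n = 366) 50.9%. Whether base composition has a part in the difference was not tested.

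Isolated rows with more rows at 1 RPKM near them in the table were more often at 1 RPKM themselves. For each library the isolated rows were grouped by the share of other rows within 10 rows that were at 1 RPKM or more in the 2 other libraries. Where that share was under 25%, 13.7% ± 2.66 (SD, n = 3 libraries, 26 to 31 rows each) of the microRNA rows reached 1 RPKM. Between 25% and 50% the share was 28.8% ± 3.82, and between 50% and 75% it was 39.4% ± 4.34. At 75% or more it was 42.2% ± 6.98, which did not differ from the class below it beyond the spread between libraries. The grouping spans the same 10 rows over which values recurred between libraries. Whether the microRNA rows hold values of their neighbours was not tested.

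**Figure D2:**
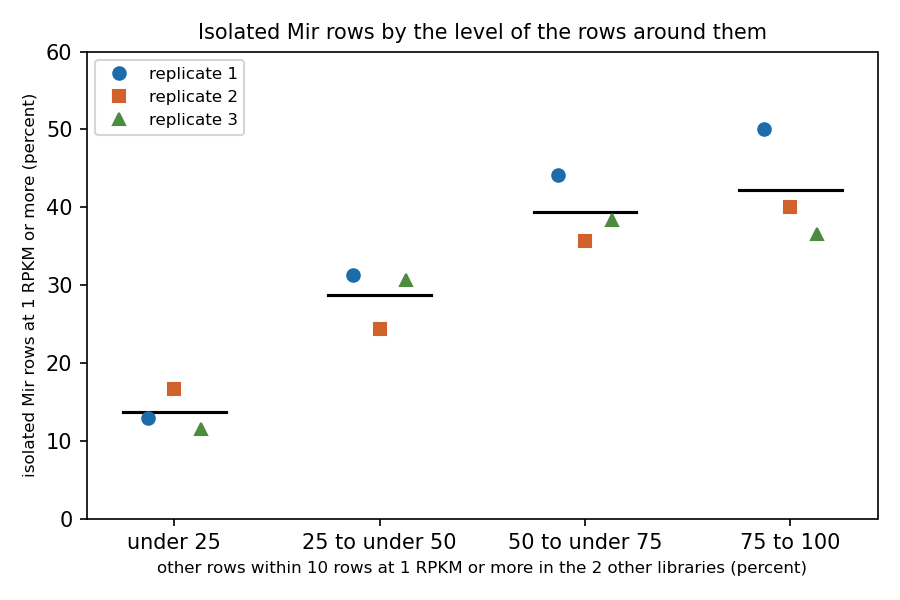
Percent of isolated microRNA rows at 1 RPKM or more, by the percent of other rows within 10 rows that were at 1 RPKM or more in the 2 other libraries. Points are libraries and lines are means. The means go from 13.7% in the lowest class to 42.2% in the highest. Whether the microRNA rows hold values of their neighbours was not tested.

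Rows inside another gene's locus were at 1 RPKM more often than rows outside. Of the 1045 rows, 727 lie inside the locus of another, non-microRNA row of the table (the containing row) and 318 inside none. At 1 RPKM or more were 41.7%, 33.8% and 36.5% of the first and 20.4%, 16.04% and 17.3% of the second, in replicates 1, 2 and 3. The classes did not overlap, and the difference was 19.4 ± 1.73 points (exact sign-flip p = 0.25). Among isolated rows alone it was 43.0% ± 4.72 against 20.7% ± 2.24. Among clustered rows the shares were 6.73% ± 0.506 and 6.77% ± 2.39, a difference of -0.0457 ± 2.34 points. The comparisons of neighbouring and containing rows, and of annotation classes below, were added after the data had been seen.

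Gene annotation (GENCODE vM21 for GRCm38, matched by symbol for 932 rows) gave these shares by position. Same-strand coding exons held 66 rows, of which 51.0% ± 3.50 were at 1 RPKM or more. Annotated UTR exons held 52 rows (42.9% ± 8.67), non-coding exons 114 (33.9% ± 6.22) and introns of a gene on the same strand 444 (36.6% ± 3.86). Rows on the opposite strand of a gene (n = 85) were at 1 RPKM in 34.9% ± 2.96 and rows between genes (n = 171) in 15.01% ± 0.893. Same-strand introns and the opposite strand differed by 1.73 ± 3.56 points, within the spread between libraries (exact sign-flip p = 0.75). Introns and rows between genes differed by 21.6 ± 3.03 points (exact p = 0.25). The labels do not state a strand-specific library, so reads of a hairpin, of its host and of an antisense gene may not be told apart.

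The level of the containing row in the same library did not order the microRNA rows in 1 direction. Where it was at 1 RPKM or more, 45.4%, 27.3% and 35.6% of the microRNA rows inside reached 1 RPKM in replicates 1, 2 and 3. Where it was lower, 38.3%, 43.5% and 37.3% did, so the order of the classes in replicate 1 was the opposite of that in replicates 2 and 3. The median over loci of log2(RPKM + 1) of the microRNA row minus that of the highest other row at the locus was 0, -0.69 and 0 (mean -0.23 ± 0.40, exact sign-flip p = 1). Loci with all rows at 0 enter this median, and over loci with a row at 1 RPKM or more the mean was -1.47 ± 0.88. The containing row is next in the table for 74.4% of these rows and within 5 rows for 89.0%, which is within the distance over which values recurred between libraries.

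A model across all 23120 autosomal rows (limma on log2(RPKM + 1), one-sided against the level of 1 RPKM, Benjamini-Hochberg adjusted p under 0.05) called 82 of the 1045 microRNA rows above 1 RPKM, or 7.85%, where 18.9% of all autosomal rows were called. The other short rows gave 9 of 146, or 6.16%. Isolated rows held 80 of the 82 and clustered rows 2. Rows inside another gene's locus held 72 of 727 and rows inside none 10 of 318. All 82 were at 1 RPKM or more in each library, and in 37 of them the SD was under 20% of the mean. Without replicate 2 the count was 62, without replicate 3 it was 52, and without replicate 1 it was 110. These p-values measure the spread on a row between the 3 libraries, which includes values found on different rows as well as differences between mice.

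The highest of the called rows was Mir6236, on chr9:110183791-110183913 (mm9, as all positions below) between annotated genes, at 2030, 863 and 2131 RPKM (limma adjusted p = 0.029). Mir5107, in a coding exon of Cd74, the invariant chain of MHC class II, was at 439, 353 and 323 RPKM, while the Cd74 row stood at 1.02, 0.680 and 0.404 RPKM. The microRNA row was thus the higher of the pair in all 3 libraries. Mir7055 (chr7:52428673-52428731) lies in an intron of Slc17a7, the vesicular glutamate transporter VGLUT1 of excitatory neurons. Its row was at 238, 233 and 206 RPKM and the Slc17a7 row at 47.1, 51.4 and 46.3 RPKM, both steady. Mir5621, in an intron of 2310067B10Rik, was at 127, 163 and 163 RPKM. These 4 were the only microRNA rows at 100 RPKM or more in every library.

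Some further called rows varied little between the mice, and a small spread is part of what the call selects. The SD was under 20% of the mean in 37 of the 82 called rows, and others varied more. Mir5101 (chr12:77010090-77010172), in a coding exon of the nesprin gene Syne2, was at 73.7, 72.8 and 72.1 RPKM, while the Syne2 row stayed under 1 RPKM. Mir7085, in an intron of Slc37a4, was at 49.8, 55.8 and 51.9 RPKM with its containing row listed at 0 in all 3 libraries. Mir335 (chr6:30691299-30691396), in an intron of the imprinted gene Mest, was at 31.8, 29.4 and 29.7 RPKM, and Mest at 4.23, 28.8 and 12.4 RPKM. In each of these 3 loci the microRNA row was above its containing row in every library. They are examples, and other called rows were below their containing row in every library. Mir350 was at 6.72, 8.74 and 9.24 RPKM and its containing row Cep170 at 20.4, 37.5 and 36.7 RPKM. Mir7034 was at 8.63, 7.75 and 6.39 RPKM and its containing row Tmem120a at 29.1, 24.4 and 33.4 RPKM.

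**Figure D3:**
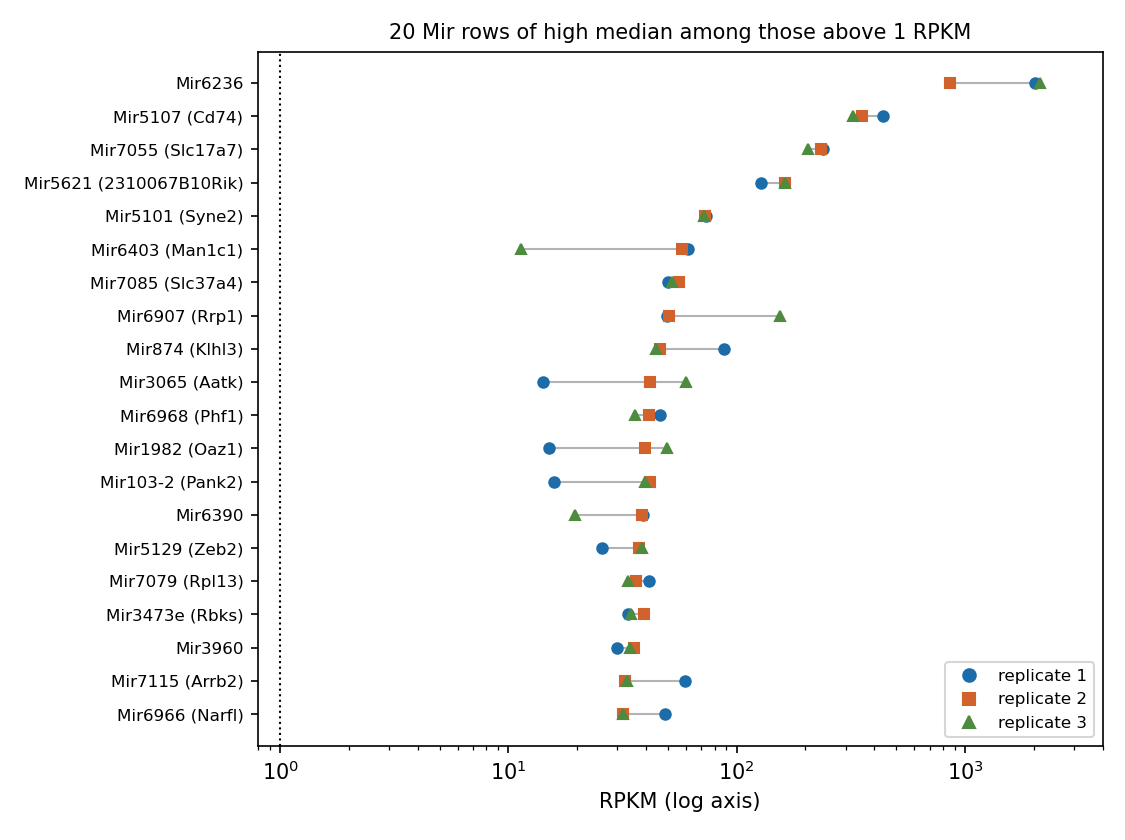
RPKM of 20 of the called microRNA rows of highest median (1 is not reported here), with the containing row in brackets, on a log axis. Points are libraries, grey lines join the lowest and highest, and the dotted line marks 1 RPKM. Mir6236 leads at 863 to 2131 RPKM and Mir5101 spans only 72.1 to 73.7 RPKM.

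Rows that share a seed, or even a mature sequence, often differed in value. The Mir9 rows all make miR-9-5p, shown above, which acts in neural progenitors and neurons. Mir9-2 (chr13:83878419-83878490) was at 1627, 2168 and 0 RPKM, Mir9-1 at 0, 0 and 58.4, and Mir9-3 at 4.43, 4.36 and 3.89. Only Mir9-3 was called (limma adjusted p = 0.048), and Mir9-2 was the highest of them in replicates 1 and 2 and at 0 in replicate 3. No row within 10 of Mir9-2 in replicate 3 came within 0.1 (natural log) of its values.

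The seed UCCCUUU was found in 3 rows. Mir204 (chr19:22825095-22825162), in an intron of the channel gene Trpm3, was at 29.4, 17.9 and 17.3 RPKM (limma adjusted p = 0.0043). Mir211 (chr7:71350692-71350797), in an intron of the related gene Trpm1, was at 17.6, 10.8 and 23.4 RPKM (limma adjusted p = 0.0082). The ranges of these rows overlap. Trpm3 was at 74.97, 87.1 and 21.3 RPKM and Trpm1 at 27.7, 29.2 and 0. The third row, Mir7670, went from 235 through 5.73 to 0 RPKM across the libraries and was not called.

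Of the rows with the miR-7 seed GGAAGAC, Mir7b was called at 41.1, 25.1 and 23.2 RPKM (limma adjusted p = 0.0036). Mir7-1, in an intron of Hnrnpk, was at 0, 158 and 0 RPKM, and Mir7-2 stayed under 1 RPKM in each library. Mir103-2 (chr2:131113788-131113873), in an intron of the pantothenate kinase gene Pank2, was at 15.8, 41.8 and 39.5 RPKM (limma adjusted p = 0.0098). Mir103-1, in an intron of Pank3, makes the same miR-103-3p and stayed under 0.2 RPKM. Mir107, with the same seed and in an intron of Pank1, was at 0, 0 and 3.89 RPKM. The let-7 seed GAGGUAG was in 10 rows, none of them at 1 RPKM in all 3 libraries, 8 in at least 1, and 2 listed at 0 throughout.

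High values were mostly seen in a single library. In all, 61 microRNA rows, each of them short, were at 100 RPKM or more in any library, which is 5.84% where 5.52% of all autosomal rows were. Of these, 50 were so in exactly 1 library, 7 in 2 and 4 in all 3, and 23 were so in 1 library and under 1 RPKM in both others. High values in all 3 libraries were also few among other autosomal rows, with 89 of the 1215 at 100 RPKM or more in any library. For the 50, the value was sought on the same row and the rows within 10 of it in the 2 other libraries. In 18 it was met, within 0.1 (natural log), in both of them, in 12 in 1 and in 20 in neither. Distant rows were not searched for these 50. Among microRNA rows at 20 RPKM or more, 20.8% to 30.97% had a value as close 31 to 40 rows away, so some matches may be unrelated.

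In 3 loci the values of the microRNA row and of the gene that holds it changed places between libraries, within 0.3 (natural log). How often values fall this way without an exchange was not tested. Mir128-1 (chr1:130098938-130099007), from which miR-128-3p is made, lies in an intron of R3hdm1. Its row was at 168, 23.1 and 24.9 RPKM and the R3hdm1 row at 18.0, 163 and 160 RPKM. The high value thus lay on Mir128-1 in replicate 1 and on R3hdm1 in replicates 2 and 3. Mir7035 was at 0, 9.75 and 331 RPKM and its containing row Rasa4 at 1.03, 317 and 9.41, so replicates 2 and 3 were reversed. The third such locus was Mir3058 (55.2, 4.09 and 0 RPKM) with Nudt4 (5.16, 45.1 and 17.3 RPKM). A wider gap was seen at Mir770 (0, 74.7 and 73.9 RPKM), which lies in Meg3, whose row was at 175, 3.85 and 4.38 RPKM.

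**Figure D4:**
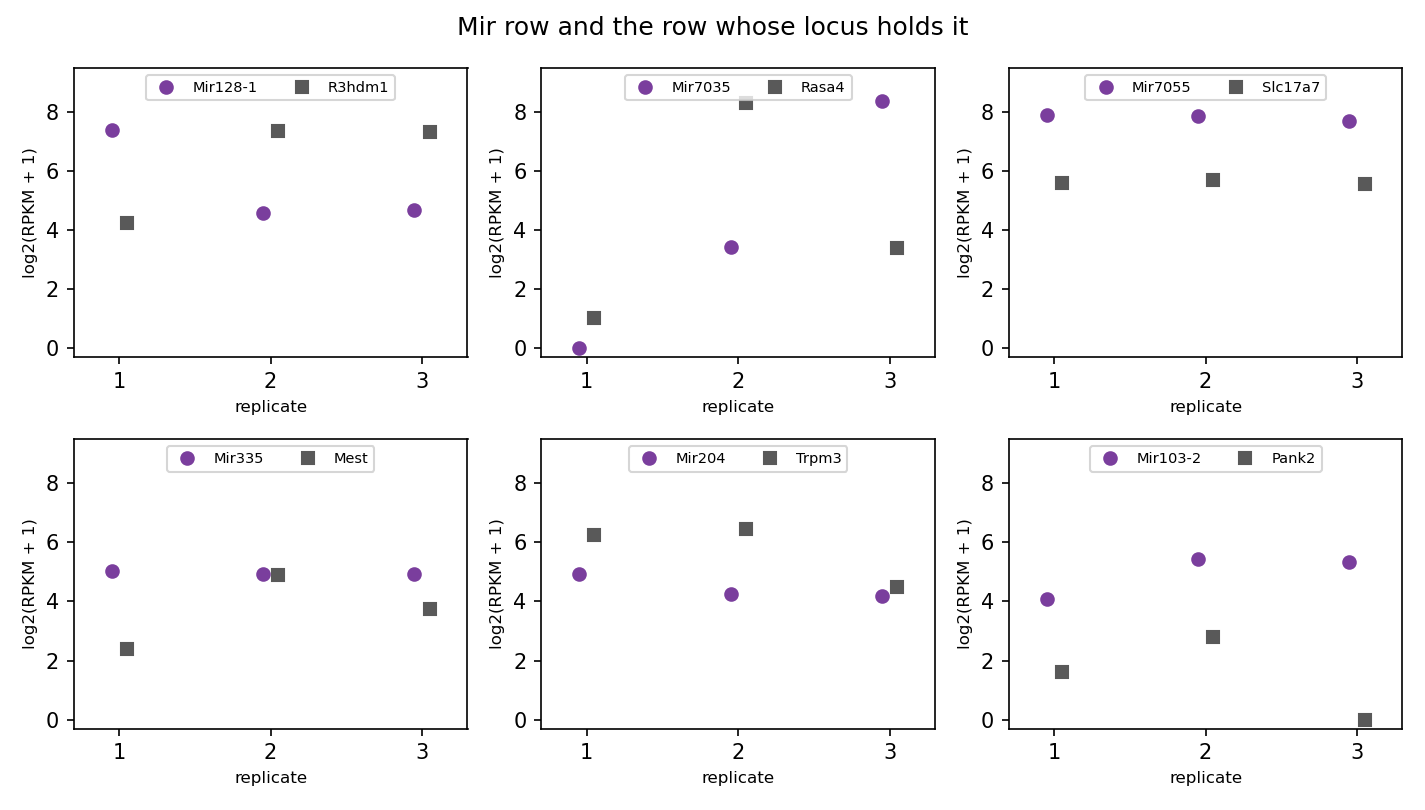
log2(RPKM + 1) of 6 microRNA rows (circles) and of the rows that contain them (squares) in replicates 1, 2 and 3. Mir128-1 and R3hdm1 change places between replicate 1 and the others, while Mir7055 stays above Slc17a7 in all 3.

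Values close to other high ones were found on a neighbouring row in another library. The Mir5133 row was at 1870, 2350 and 0.201 RPKM, and in replicate 3 the next row, A730043L09Rik, was at 1840. The Mir2861 row was at 1946, 5036 and 0 RPKM, and in replicate 3 the row before it, Naif1, was at 2105. Mir6953, in an intron of the gene Grina, was at 356, 0 and 11.6 RPKM, and Grina stood at 353 in replicate 2. Each of the 3 values in replicate 1 had one within 0.1 (natural log) on an adjacent row in another library. The replicate 2 values of Mir5133 and Mir2861 had no such value in replicate 3. Naif1 was itself at 1292 RPKM in replicate 2, where Mir2861 was at 5036.

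For the 20 rows without a match, no such value was found within 10 rows in either of the other libraries, as in these examples. Mir214, in the antisense gene Dnm3os, was at 823, 0 and 0 RPKM. Mir125a was at 0, 449 and 0 RPKM. Mir138-2 was at 719, 0 and 0 RPKM, while the closest rows in replicates 2 and 3, the metallothioneins Mt3 and Mt1, were at 632 and 582. Each rests on 1 mouse.

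The largest of the 10 runs were on chromosome 2, with 74 rows from Mir511 to Mir669h, and on chromosome 12, with 58 rows from Mir673 to Mir3072. On chromosome 2, where most hairpins lie in introns of Sfmbt2, an imprinted gene of the placenta, 71 of the 74 rows were listed at 0 in all 3 libraries. Its highest value was 14.1 RPKM, on Mir669e in replicate 2 alone. Many rows of this run repeat a symbol, such as Mir669a-1 and Mir467a-1, so they are not all separate genes. With 1 row per symbol, clustered minus isolated rows at 0 was 36.8 points. On chromosome 7, the 13 rows of the Mir344 run and the 9 rows of the Mir290 run, a cluster of embryonic stem cells, were listed at 0 in every library. The 3 Mir344 sequences above belong to a family of 7 rows that share the seed GUCAGGC.

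The chromosome 12 run is the imprinted Dlk1-Dio3 region, whose maternal long RNAs Meg3, Rian and Mirg carry hairpins that act in neurons. Of its 58 rows 49 were listed at 0 in all 3 libraries, and 3, 3 and 4 were at 1 RPKM or more in replicates 1, 2 and 3. Mir136 (chr12:110833537-110833598), on the strand opposite to Rtl1, was at 0, 0 and 2146 RPKM. Mir412 (chr12:110981499-110981578), inside Mirg, was at 0, 1117 and 0 RPKM. Mir1188, inside Rian, was at 91.8, 0 and 0 RPKM. The 3 high rows were thus a different row in each library. A pair of small RNA rows of the same stretch did likewise, DQ267101 with 82.6 RPKM in replicate 2 and DQ267102 with 94.1 in replicate 3. Rian was listed at 0 in each library, and Mirg stayed under 0.2 RPKM.

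**Figure D5:**
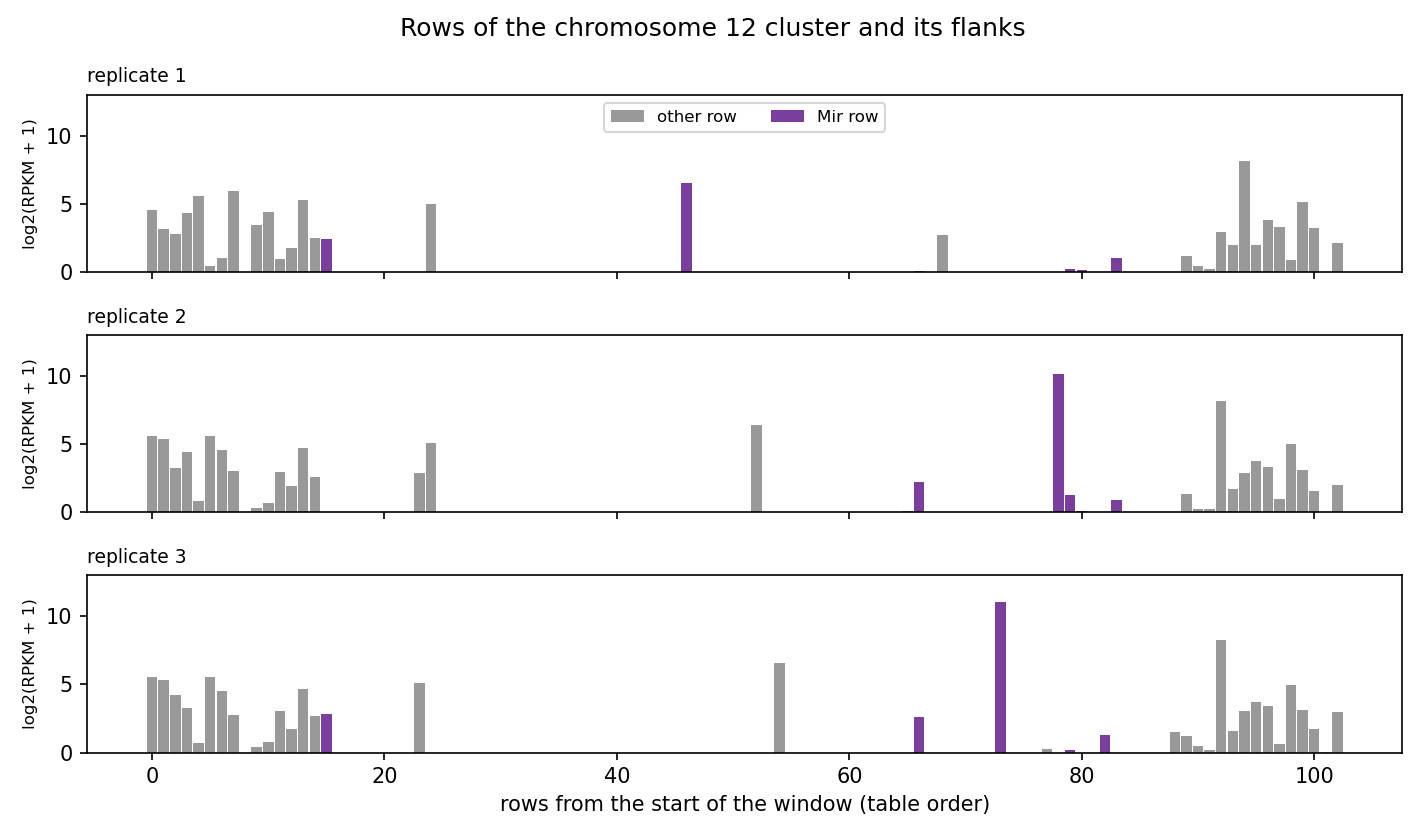
log2(RPKM + 1) of the rows of the chromosome 12 run and its flanks in table order, 1 panel per library, with microRNA rows in purple and other rows in grey. Most rows inside the run are at 0, and the highest microRNA row is Mir1188, Mir412 and Mir136 in replicates 1, 2 and 3.

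The remaining runs were small. Of the 8 rows of the chromosome 8 run from Mir181d to Mir709, 3 or 4 reached 1 RPKM in a library and 3 were at 0 throughout. In the Mir17 run of chromosome 14, a cluster that promotes proliferation, 3, 0 and 1 of 7 rows reached 1 RPKM. Its highest value was 18.7 RPKM, on Mir19b-1 in replicate 3.

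By chromosome the share at 1 RPKM or more went from 14.5% ± 3.93 of 147 rows on chromosome 2 and 16.3% ± 1.09 of 92 on chromosome 12 to 45.8% ± 2.73 of 56 on chromosome 8. The lowest, chromosomes 2 and 12, hold the largest runs, with 74 and 58 clustered rows. Next came chromosomes 9 (27.9% ± 8.25) and 3 (28.1% ± 10.6), with no clustered row, and chromosome 7 (29.2% ± 1.89), with 22. Chromosome 8 has 8 clustered rows. Chromosome 5, with 45.1% ± 10.4 of 51 rows, has no clustered row.

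Of 50 neuronal and activity-related rows, 4 were called above 1 RPKM (8.00%, against 7.85% of all microRNA rows and 18.9% of all autosomal rows). Among the 50, 25 reached 1 RPKM in at least 1 library and 20 were listed at 0 in all 3. Of all 1045 microRNA rows, 131 reached it in all 3 libraries and 405 in 1 or 2, and 399 (38.2%) were at 0 throughout. The 4 called were Mir7b, Mir128-1, Mir129-1 (16.6, 24.7 and 23.8 RPKM) and Mir9-3. The activity-regulated pair Mir132 and Mir212 lies within 1 short stretch of chromosome 11. Mir132 was at 29.5, 0 and 0 RPKM and Mir212 at 0, 43.2 and 0. The highest value within 5 rows of either was 29.5, 45.5 and 39.96 RPKM. Around the Mir96 row, itself at 0 in every library, it was 25.8, 25.8 and 24.7 RPKM. The window therefore cannot tell whether such values belong to the pair. Mir326, in an intron of Arrb1, was at 11.9, 2.76 and 137 RPKM, and Arrb1 at 2.78, 133 and 33.7. In bulk tissue, fewer cells of a type and less RNA per cell cannot be told apart.

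No let-7 row of the 12 in the list was called by limma, where 7.85% of all microRNA rows and 18.9% of all autosomal rows were, and 7 reached 1 RPKM in at least 1 library and 4 were listed at 0 in all 3. These microRNAs are abundant in most differentiated tissues. Mirlet7g, in an intron of Wdr82, was at 6.25, 0 and 3.20 RPKM. Mirlet7a-1 was at 22.9, 0 and 0 RPKM, Mirlet7f-1 at 1.87, 0 and 20.2, and Mirlet7d at 0, 213 and 0.0853. These last 3 rows lie side by side, and their highest value fell on a different row in each library.

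Rows of microRNAs named for other tissues were also listed above 0, and their calls are read against 7.85% of all microRNA rows and 18.9% of all autosomal rows. Of 10 muscle rows 1 was called, Mir208a, in an intron of the cardiac myosin gene Myh6, at 21.3, 12.9 and 11.99 RPKM (limma adjusted p = 0.0063), with Myh6 at 27.9, 18.2 and 17.7. Mir499, in Myh7b, was at 0, 59.5 and 57.3 RPKM. Of 13 epithelial rows 1 was called, Mir192, at 15.1, 18.4 and 17.7 RPKM (limma adjusted p = 0.0018). Of 5 rows listed as vascular (Mir126, Mir126b, Mir143, Mir145 and Mir145b) 1 was called, Mir145b, at 9.08, 10.7 and 7.47 RPKM. Mir126, in Egfl7, was at 12.4, 0 and 0 RPKM. None of the 9 blood and immune rows was called. The 3 sensory rows, Mir96, Mir182 and Mir183, were listed at 0 in every library, as were 12 of 14 pluripotency rows. Whether RNA of other cells has a part in these values was not tested.

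Genes of the microRNA pathway were mostly at 1 RPKM or more. Of 34 rows 21 were so in all 3 libraries, and 12 were called above 1 RPKM, or 35.3%, where 18.9% of all autosomal rows were. For the nuclear step, Dgcr8, which binds the hairpin, was called at 16.03, 8.51 and 14.5 RPKM, and Drosha, the nuclease, was at 21.9, 23.8 and 0.314. Mir1306, in a coding exon of Dgcr8, was at 312, 13.8 and 3.73e-230 RPKM.

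For the later steps, Xpo5, the exporter, was at 0, 19.03 and 17.7 RPKM, and Dicer1 at 0.940, 6.89 and 7.08. The Dicer partners Tarbp2 (10.3, 9.76 and 9.67 RPKM) and Prkra (16.1, 15.4 and 16.1 RPKM) were both called and steady. Of the Argonautes, Ago2, the one that cleaves targets, was called at 5.12, 9.06 and 9.49 RPKM, and Ago3 at 15.3, 19.5 and 22.0. Also called were Xrn1, a decay exonuclease, Pum2, an RNA-binding repressor, the helicases Ddx6 and Ddx17, the editing enzyme Adar, and Tsn and Tsnax, which form an RNA-cutting complex. Lin28a, which blocks the making of let-7 in stem cells, was listed at 0 in all 3 libraries.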

How the data were processed

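RNA sequencing values of 3 dentate gyrus libraries were read from the deposited table. The deposited values are RPKM; per the submitters' processing notes the authors used TopHat2 and Cufflinks with the mm9 genome. Tool versions and the annotation were not given in the sources used here, nor were filters. Positions in the table count starts from 0 and are printed from 1. It also holds 9 value columns of no listed sample, which were not used. Total depth is unknown.

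Shares of rows were computed per library in Python 3.11.15 and compared over the 3 libraries by their mean, SD and an exact sign-flip permutation test. Levels were fitted in limma 3.58.1 (R 4.3.3) on log2(RPKM + 1) with a variance trend, over all autosomal rows, without a filter on low values, and the script was tested on simulated data. Named rows are those at 100 RPKM or more in any library, those called, the leading rows at 1 RPKM or more in all 3 libraries, those next to 250 bp, and the leading members of clusters and lists. Other rows set beside them are containing or neighbouring rows, and a few members, such as Mir103-1, Mir107, Mir7-2, Mir132 and Mir212, were named after their values were seen to complete a seed family or pair. The members and lists were chosen with earlier results of these data known. Rows that share a symbol were kept apart. Annotation came from GENCODE vM21 (GRCm38) by symbol only, since no mm9 genome was used here. Alternatives tried are levels, length limits, cluster definitions, scaling, pseudocount, filter, 1 row per symbol, and leaving out each library. 1 of the called rows is not reported here.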

Additional observations from a re-analysis of the deposited data

How the results depend on the processing

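Of 127 alternative values, 97 stayed within the SD between libraries of the main one (or a count within 1.5 times), 26 moved further and 4 changed sign. The 4 sign changes were all in differences that were within the spread between libraries: short minus long rows at 10 RPKM (0.76 points) and without replicate 2 (0.786), short microRNA rows minus other short rows at 10 RPKM (-1.52), and same-strand intron minus opposite strand without replicate 1 (-0.134).

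At a level of 0.1 and of 10 RPKM in place of 1, microRNA minus other rows gave -26.4 and -8.60 points, clustered minus isolated -35.1 and -16.7, short isolated minus short clustered 35.4 and 16.7, inside another row minus inside none 21.2 and 10.1, and isolated minus the other rows near them -25.9 and -8.98. Short minus long was -6.86 at 0.1 RPKM. At 50 in place of 100 RPKM, short minus long was 4.75 and clustered minus isolated -3.85. With 3 or more rows within 10, or 5 or more within 20, as the definition of a cluster, clustered minus isolated was 29.4 and 30.2 points at 0 and -22.3 and -22.4 at 1 RPKM, and short isolated minus short clustered was 22.6 and 22.8. With a length limit of 1000 bp, which adds longer rows to the comparison group, short microRNA minus other short rows was 18.95. At 150 bp it was 2.13. With runs of under 9 rows as the clustered rows, clustered minus isolated was 2.14 points at 0 and -3.15 at 1 RPKM.

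Agreement of microRNA rows between libraries was 59.3% ± 5.56 on the same row and 65.5% at 0.1 RPKM. Within 5 rows it was 99.9% and within 2 rows 97.5%, but 93.9% and 87.6% of all autosomal rows have a value at 1 RPKM within 5 and within 2 rows, so these windows say little. Of loci with a row at 1 RPKM, the microRNA row minus the highest other row was -1.47 (log2). With each library left out in turn, called rows numbered 52 to 110, the share at 0, clustered minus isolated, was 37.0 to 40.9, and the share at 1 RPKM, clustered minus isolated, was -31.2 to -28.1. In the same way microRNA minus other rows was -21.9 to -18.8, inside minus outside another row 18.5 to 20.2, short minus long -3.95 to 0.786 at 1 RPKM and 2.15 to 17.5 at 0, short microRNA minus other short rows 1.40 to 6.08, and same-strand intron minus opposite strand -0.134 to 3.41. Long isolated minus long clustered rows, with 1 clustered row, was 0 ± 60.1 and ran from -19.2 to 34.6, so its staying within the SD says nothing of stability.

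Where a value moved, the cause was not tested. Alternatives for the added comparisons were chosen after seeing the data. No paired analysis was possible because there is only 1 group. With 3 libraries no sign-flip test can pass 0.05, and with no counts no interval for reads can be given. At unadjusted p under 0.05, 116 microRNA rows passed the limma test.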

Other observations

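MicroRNA rows of the X chromosome stand outside the comparisons above. Of 85 such rows 15.3% ± 2.35 (SD, n = 3) were at 1 RPKM or more in a library, 2 were so in all 3, and 48 were listed at 0 in all 3. The highest values were on Mir421, at 0, 1483 and 4.01 RPKM in replicates 1, 2 and 3, on Mir374c at 0, 0 and 339, and on Mir6383 at 0, 246 and 226. Mir2137 was at 6.20, 3.92 and 4.38 RPKM. The row of Mir98, a let-7 relative, was at 0, 18.3 and 0 RPKM.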
